A study of Mus musculus with 40 samples.

Results

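The genes examined here seal the outer epithelium of the mouse blastocyst and move salt and water across it. They were chosen by name, with earlier results of these data known. They comprised the claudins Cldn4, Cldn6 and Cldn7, the junction scaffold Tjp1, the sodium pump subunit Atp1b1, and the water channels Aqp3, Aqp8 and Aqp9. All 8 were found among the 24499 genes of the counts and among the 17280 genes with a length-scaled level. The cells were 40 single cells of 13 female C57BL/6J*Cast/EiJ embryos, from natural matings of a C57BL/6J mother with a CAST/EiJ father, without culture. At E3.5 there were 3 trophectoderm (TE) cells of 3 embryos and 14 inner cell mass (ICM) cells of 7 embryos. At E4.0 there were 13 primitive endoderm (PrE) cells of 3 embryos and 10 epiblast (Epi) cells of 2 embryos. The study assigned these classes from the stage and from candidate genes of pluripotency and lineage differentiation. Inner cell masses were freed by immunosurgery, which kills the outer cells. All TE cells and 3 ICM cells came from an earlier study of the same authors. The E4.0 classes and TE cells therefore differed in stage and in study as well as in lineage, and these cannot be told apart.

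A blastocyst forms when the TE becomes a sealed epithelium around a fluid-filled cavity, the blastocoel. Tight junctions close the space between TE cells. Claudins are the membrane proteins that form their strands, and Tjp1 (ZO-1) is a scaffold in the plaque below. The sodium pump, a complex of an alpha and a beta subunit, drives ions into the cavity, and water follows along the osmotic gradient, partly through aquaporins. Aqp3 and Aqp9 also pass glycerol, whereas Aqp8 is known as a channel for water and ammonia. The PrE is itself an epithelium, formed later on the surface of the ICM that faces the cavity, and the Epi gives rise to the embryo proper.

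Levels per cell are given as RPRT, the authors' unit of reads scaled to the retrotranscribed length of a gene and to the mapped reads of a cell, which permits comparison between genes. The study called a gene expressed above an RPRT of 1. The total count was 1019112 to 12833051 per cell, and 4 cells (1 ICM, 3 PrE of embryo 14) had fewer than 70% of their reads mapped. For tests, the counts of all cells of an embryo in a class were added up, which gave 15 sums. Their levels are given as CPM, counts relative to a library size scaled by TMM, a method that sets libraries to a common level. Differences were tested with edgeR's quasi-likelihood F test over 12599 genes, two-sided, and called at an adjusted p (Benjamini-Hochberg) of 0.05. An embryo, not a cell, was the replicate, and the Epi class rested on 2 embryos. The sums held 1 to 9 cells, and each counted as 1 replicate in the fit and in the SD. All 3 TE sums, ICM embryos 4, 11 and 13, and Epi embryo 17 were single cells. The spread between sums thus includes spread between cells. The classes bore their markers, but many of these genes had been used by the study to set the classes. Among TE markers these were Cdx2, Hand1, Elf3 and Eomes, and among PrE markers Gata4, Gata6 and Sox17. Among Epi markers they were all but Tdgf1. The marker sums are therefore not independent of the classes. The summed RPRT of 8 TE markers was 9080 to 14968 in TE cells and at most 2805 elsewhere, with Hand1 at 0 in all TE cells. For 8 PrE markers, PrE cells summed to 301 to 1550 and Epi cells to at most 57.7. For 8 Epi markers, Epi cells summed to 1140 to 2447 and PrE cells to at most 266. ICM cells overlapped both E4.0 classes, with up to 527 for PrE and 1443 for Epi markers. Blood and stromal genes of the mother, 6 in number, summed to at most 11.1 in any cell.

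The genes lie on different chromosomes (GRCm38, the build the authors call mm10, GENCODE annotation) and are all protein coding. Among the claudins, Cldn4 lies at chr5:134945119-134946934 on the minus strand, Cldn6 at chr17:23679249-23682446 on the plus strand and Cldn7 at chr11:69964779-69967885 on the plus strand. Tjp1 (chr7:65296165-65527781, minus strand) overlaps 3 unnamed gene models. Atp1b1 (chr1:164437109-164458355, minus strand) shares 617 bp with Nme7, a gene on the opposite strand. The protocol does not mark strand, so reads of these 617 bp cannot be assigned to either gene. Aqp3 (chr4:41092722-41098183, minus strand) and Aqp8 (chr7:123462291-123468004, plus strand) overlap no other gene. Aqp9 (chr9:71110659-71168682, minus strand) overlaps a pseudogene and the antisense gene Gm32511, which had 187 counts over all 40 cells.

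Promoters from RefSeq (GRCm38.p6, 250 bases before to 50 after the start) were found for all 8 genes and searched on both strands for short motifs of factors known in the blastocyst. The motif of the TEAD family, GGAATG, whose member Tead4 is required for TE formation, was present in 3 of 8 genes and in 14.7% of all 32851 promoters. These 3 windows of 30 bases are shown because they belong to genes with contrasting patterns, a pair of claudins and Aqp8. Capitals mark the motif on either strand.
Cldn7, chr11:69964697-69964726, plus strand: aacctggggaggGGAATGttgggcgtgtcg
Cldn6, chr17:23679352-23679381, plus strand: tgcctccgccctCATTCCtactttcgacct
Aqp8, chr7:123462061-123462090, plus strand: cacgaggatggtGGAATGtcaatggtagcg
The motif centre lay 68 bases before the start of Cldn7, 219 bases before that of Aqp8 and at position 1 of Cldn6. In Cldn7 it partly overlapped a match to GGGNGGGG, a motif of KLF and SP factors, which was found in 5 of 8 genes and in 33.2% of all promoters. The TFAP2 motif GCCNNNGGC was found in Tjp1 only (1 of 8 genes, 16.6% of all promoters). The GATA motif AGATAA (11.2% of all promoters) and the GRHL motif AACCNGTT (2.09%) were found in 0 of 8. These matches describe letters in a window and not binding.

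Of the 8 genes, 3 differed between ICM and TE cells, where 4.23% of all genes tested were called. Cldn4 and Cldn7 were lower and Aqp8 was higher in the ICM. The same 3 were called between PrE and TE cells, against 2.31% of all genes, in the same directions. Between Epi and TE cells 1 of 8 was called, Cldn4, which was lower, against 1.70% of all genes. No gene of the 8 was called for PrE over ICM (0% of all genes), Epi over ICM (0.00794%) or Epi over PrE (0%). In these last comparisons edgeR called 0, 1 and 0 genes in all, while 1160, 916 and 965 genes had an unadjusted p under 0.05 and DESeq2 called 351, 498 and 415. Of the 8 members, 2, 3 and 2 had an unadjusted p under 0.05 there. The median log2 fold change of the 8 was -2.02, -4.29 and -3.12 for ICM, PrE and Epi over TE cells, beside 0.70, 0.53 and 0.35 over all genes tested. It was -1.10, -1.34 and -0.19 for PrE over ICM, Epi over ICM and Epi over PrE cells, beside -0.05, -0.21 and -0.11. The 3 comparisons with TE cells share the same 3 TE sums. Without TMM scaling the median over all genes was 1.09 for ICM over TE cells, and with the size factors of DESeq2 in edgeR it was 0.17. The directions of the called members held under each scaling, but not all calls did. With the size factors of DESeq2, Aqp8 did not pass for ICM or PrE over TE (adjusted p = 0.0924 and 0.112 in edgeR), and without TMM Cldn7 did not pass for ICM over TE (adjusted p = 0.0937).

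**Figure D1:**
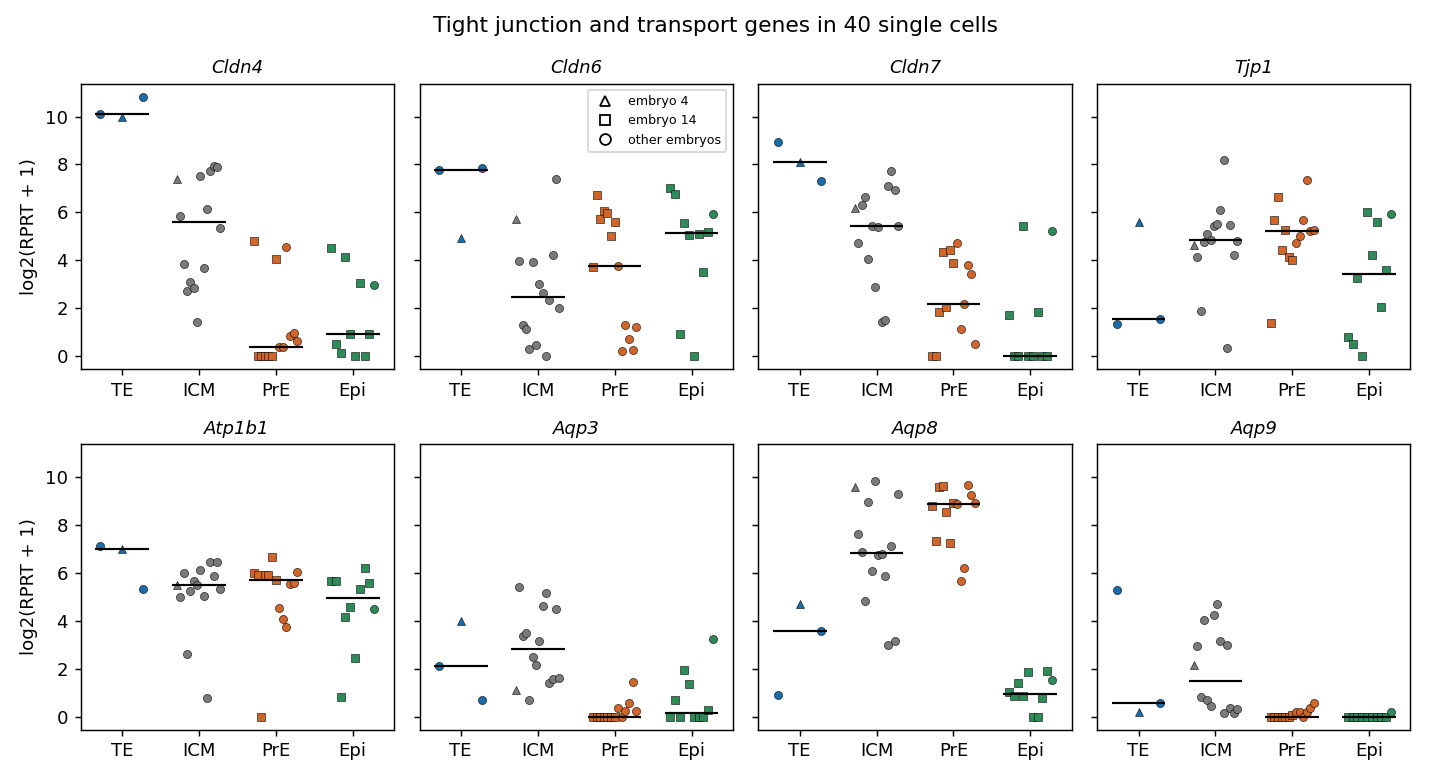
Each point is 1 of 40 cells, with the RPRT level of a gene on a log2(RPRT + 1) axis, by class (3 TE, 14 ICM, 13 PrE and 10 Epi cells). Bars are medians, triangles mark embryo 4 and squares embryo 14. Cldn4 was at 1022.5 or above in every TE cell and at or below 245 elsewhere, and Aqp8 was at 49.8 or above in every PrE cell and at or below 2.79 in every Epi cell.

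Cldn4 was the most abundant claudin of the TE and the gene with the largest difference from TE among the 8 that were called. The TE cells of embryos 2, 4 and 5 had an RPRT of 1091, 1022.5 and 1828. The 14 ICM cells ranged from 1.71 to 245 with a median of 48.0, and all were above 1. Of the PrE cells 3 of 13 were above 1 (range 0 to 26.8, median 0.313), and of the Epi cells 4 of 10 were (range 0 to 21.8, median 0.890). TE cells thus did not overlap any other class, whereas the ranges of ICM, PrE and Epi cells overlapped. In the sums, CPM was 3346 ± 2106 in TE (SD, n = 3), 127 ± 128 in ICM (n = 7), 4.41 ± 3.98 in PrE (n = 3) and 7.52 ± 3.69 in Epi (n = 2). The log2 fold change over TE was -4.72 (SE 0.79, adjusted p = 0.00527) in ICM, -9.56 (SE 1.38, adjusted p = 0.00238) in PrE and -8.80 (SE 1.62, adjusted p = 0.0146) in Epi with edgeR. PrE and Epi lay below ICM by log2 fold changes of -4.84 and -4.09, which did not pass (adjusted p = 0.162 and 0.284). They were called in 4 of 12 and 1 of 12 alternatives, with adjusted p down to 1.45e-04 and 0.0171, both in DESeq2. The call of Epi over TE was lost without either Epi embryo (adjusted p = 0.104 without embryo 14 and 0.134 without embryo 17). Each of these fits leaves 1 Epi sum, which is assumed to vary like the sums of the other classes.

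Cldn7, a claudin of many simple epithelia, had a lower TE level. The RPRT was 489, 271 and 158 in the TE cells of embryos 2, 4 and 5. ICM cells ranged from 1.69 to 212 with a median of 42.7, and all 14 were above 1. PrE cells ranged from 0 to 25.3 (median 3.48, 10 of 13 above 1). Without the 3 PrE cells under 70% mapped the median was 11.4, with 9 of 10 above 1. In Epi cells the median was 0, 6 of 10 had no count, and the highest cells were at 41.6 (embryo 14) and 36.3 (embryo 17). The ICM range reached into the TE range through a cell of embryo 12, while PrE and Epi cells lay below all TE cells. CPM was 486 ± 236 in TE (n = 3), 57.9 ± 53.7 in ICM (n = 7), 15.2 ± 10.7 in PrE (n = 3) and 20.3 ± 22.3 in Epi (n = 2). The log2 fold change over TE was -3.07 (SE 0.86, adjusted p = 0.0484) in ICM and -5.00 (SE 1.27, adjusted p = 0.0414) in PrE in edgeR. In Epi it was -4.59 (SE 1.49, adjusted p = 0.106) and passed with the embryo as a replicate block in limma-voom (adjusted p = 0.00936). The call for ICM rested near the threshold. It was lost in 8 of 13 alternatives and in 10 of 15 fits without 1 sum, with adjusted p up to 0.531 and 0.0822. The latter left out TE embryos 2 and 5, ICM embryos 4, 8, 9, 10 and 13, or any PrE embryo. The call for PrE was lost in 6 of 15 fits without 1 sum (TE embryos 2 and 5, ICM embryo 8, and PrE embryos 14, 15 and 16), with adjusted p up to 0.138.

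Cldn6, known as a claudin of early embryonic epithelia, varied among cells of the same class. The RPRT was 214, 29.3 and 233 in the TE cells of embryos 2, 4 and 5. In ICM cells it ranged from 0 to 168 (median 4.58, 11 of 14 above 1). In PrE cells it followed the embryo. All 7 cells of embryo 14 were at 12.3 to 104, while the 6 cells of embryos 15 and 16 were at 0.167 to 12.6. The PrE median was 12.6, and 7.06 without the cells under 70% mapped. Epi cells reached 127 with a median of 34.0, and 8 of 10 were above 4. The median of Epi cells was thus above that of ICM cells, in contrast to Cldn4 and Cldn7. CPM was 311 ± 244 in TE (n = 3), 23.6 ± 33.1 in ICM (n = 7), 26.1 ± 31.9 in PrE (n = 3) and 61.0 ± 5.83 in Epi (n = 2). No comparison passed in edgeR. The nearest was ICM over TE with a log2 fold change of -3.72 (SE 1.26, adjusted p = 0.0897), which passed in DESeq2 (-5.29, adjusted p = 0.00161) and in 4 of 13 alternatives in all. Epi over ICM was 1.37 (SE 1.42, adjusted p = 0.883).

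Tjp1 did not follow the claudins. In the TE cells of embryos 2, 4 and 5 the RPRT was 1.55, 48.0 and 1.92, so 1 of 3 was above 4. ICM cells ranged from 0.252 to 294 (median 27.4), PrE cells from 1.56 to 164 (median 36.1, all 13 above 1) and Epi cells from 0 to 63.1 (median 9.94). The ranges of all 4 classes overlapped. Over the 40 cells, RPRT and counts per total count of the cell had a Spearman rho of 0.84 for Tjp1. For the other genes it was 0.96 to 0.99, so the 2 measures differed more for Tjp1. CPM was 16.7 ± 25.7 in TE (n = 3), 78.1 ± 84.6 in ICM (n = 7), 64.2 ± 34.8 in PrE (n = 3) and 34.97 ± 30.001 in Epi (n = 2). The log2 fold change of ICM over TE was 2.22 (SE 1.16, adjusted p = 0.232 in edgeR). The TE cell of embryo 4 lowered this estimate. Without that cell the log2 fold change of ICM over TE was 5.41 (adjusted p = 0.0311 in edgeR), and that of PrE over TE became 5.12 (adjusted p = 0.04996).

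Atp1b1, the beta subunit that brings the sodium pump to the membrane, was present in nearly every cell. The RPRT was 141, 126 and 39.7 in the TE cells of embryos 2, 4 and 5. It was 0.714 to 87.5 in ICM cells (median 44.9), 0 to 101 in PrE cells (median 50.9) and 0.752 to 73.005 in Epi cells (median 30.9), and 37 of 40 cells were above 4. The cells below were 1 ICM cell of embryo 11 and 1 PrE and 1 Epi cell of embryo 14. CPM was 232 ± 118 in TE (n = 3), 66.9 ± 35.3 in ICM (n = 7), 79.7 ± 26.1 in PrE (n = 3) and 46.1 ± 21.3 in Epi (n = 2). The log2 fold change was -1.79 (SE 0.82, adjusted p = 0.186) for ICM over TE and did not pass in edgeR in any comparison.

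Aqp8, unlike Cldn4 and Cldn7, was higher in ICM and PrE than in TE cells, and it was low in Epi cells. The RPRT was 0.875, 25.1 and 10.9 in the TE cells of embryos 2, 4 and 5. All 14 ICM cells were above 4, from 6.996 to 908 with a median of 113. All 13 PrE cells were above 4, from 49.8 to 828 with a median of 471. None of the 10 Epi cells was above 4, and they ranged from 0 to 2.79 with a median of 0.949. PrE and Epi cells did not overlap, and ICM cells spanned both TE and PrE levels. CPM was 21.7 ± 19.2 in TE (n = 3), 460 ± 423 in ICM (n = 7), 666 ± 86.9 in PrE (n = 3) and 1.52 ± 1.24 in Epi (n = 2). The log2 fold change over TE was 4.40 (SE 1.16, adjusted p = 0.0399) in ICM and 4.94 (SE 1.24, adjusted p = 0.0397) in PrE with edgeR. Both lay near the threshold and were called in 7 of 13 and 8 of 12 alternatives. With the embryo as a replicate block in limma-voom, adjusted p was 0.192 and 0.0531. Leaving out 1 sum, the call for ICM was lost in 7 of 15 fits (TE embryos 2 and 5, ICM embryos 4, 9, 10 and 13, and PrE embryo 16, adjusted p up to 0.124). That for PrE was lost in 6 of 15 (TE embryos 2 and 5, ICM embryo 10, and PrE embryos 14, 15 and 16, adjusted p up to 0.107).

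For Epi over PrE cells, the log2 fold change of Aqp8 was -8.82 (SE 1.80) with an unadjusted p of 7.79e-05, but edgeR's adjusted p over all genes was 0.327. It passed in 8 of 12 alternatives, among them limma-voom with the replicate block (-9.15, adjusted p = 0.0349), DESeq2 (-8.68, adjusted p = 4.93e-07), edgeR on PrE and Epi sums alone (-8.89, adjusted p = 0.00253) and limma on RPRT values (-6.87, adjusted p = 0.0103). For Epi over ICM cells it was -8.29 (SE 1.73, unadjusted p = 1.02e-04, adjusted p = 0.102), and 6 of 12 alternatives called it. Over the 12 alternatives of each comparison the adjusted p ranged from 4.93e-07 to 0.669 and from 6.55e-09 to 0.214, and the sign was negative throughout.

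Within embryo 14, which gave 7 PrE and 9 Epi cells, the stage, mother and litter were the same. There Aqp8 was at 150 to 788 in the PrE cells (median 446) and at 0 to 2.79 in the Epi cells (median 0.824), without overlap. The other genes overlapped in this embryo. Cldn6 was at 12.3 to 104 in PrE and at 0 to 127 in Epi cells, Cldn4 at 0 to 26.8 and at 0 to 21.8, and Cldn7 at 0 to 20.3 and at 0 to 41.6. Cldn7 had no count in 2 of 7 PrE cells, both under 70% mapped, and in 6 of 9 Epi cells. Tjp1 was at 1.56 to 100 and at 0 to 63.1, and Atp1b1 at 0 to 101 and at 0.752 to 73.005. The only embryo with both E3.5 classes was embryo 4, with 1 cell of each and no replicate. Its TE cell had 1022.5, 271 and 126 RPRT of Cldn4, Cldn7 and Atp1b1, and its ICM cell 165, 71.5 and 44.9. Aqp8 was at 25.1 in the TE cell and at 772 in the ICM cell, while Cldn6 was at 29.3 and 51.5.

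Among cells of the earlier study alone, ICM over TE can be read within that study. Its 3 ICM cells (embryos 4, 8 and 12) had 165, 5.57 and 245 RPRT of Cldn4, all below the 3 TE cells. They had 772, 27.4 and 141 of Aqp8, all above them. The log2 fold changes were -4.13 for Cldn4 (SE 0.90, adjusted p = 0.0558), -1.89 for Cldn7 (SE 1.05, adjusted p = 0.531) and 4.10 for Aqp8 (SE 1.48, adjusted p = 0.311) in edgeR, and none passed with these cells.

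**Figure D2:**
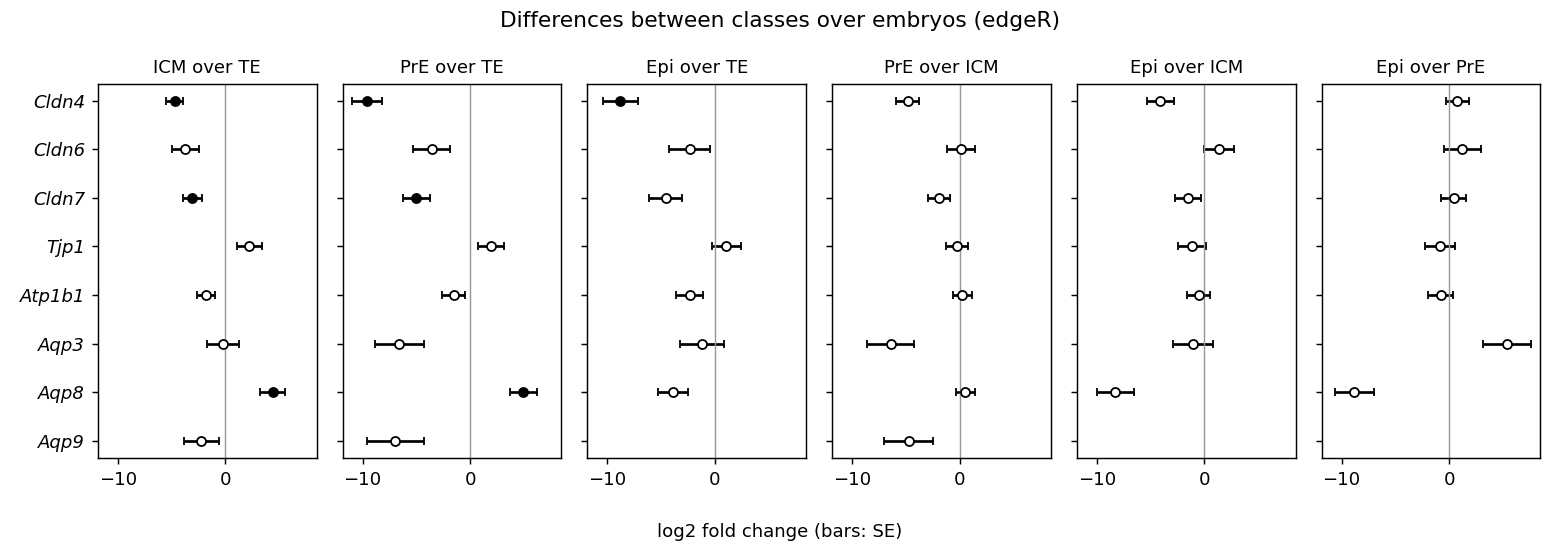
Log2 fold changes (x axis, bars are SE derived from F) of the 8 genes (rows) for the 6 comparisons between classes, over 15 sums of embryo and class in edgeR. Filled points passed an adjusted p of 0.05: Cldn4 in all 3 comparisons with TE, and Cldn7 and Aqp8 in ICM and PrE over TE. Aqp9 is not drawn against Epi, where it had 1 count in all.

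Aqp3, an aquaglyceroporin, was low in every class and lowest in the PrE cells. The RPRT was 3.305, 15.02 and 0.621 in the TE cells of embryos 2, 4 and 5. ICM cells ranged from 0.638 to 42.3 (median 6.39) and 13 of 14 were above 1. Among PrE cells 1 of 13 was above 1, the highest had 1.72, and all 7 cells of embryo 14 had no count. Among Epi cells 3 of 10 were above 1, the highest being the cell of embryo 17 at 8.41. TE and ICM cells overlapped throughout, and the lowest ICM cell lay below the highest PrE cell. CPM was 11.7 ± 15.3 in TE (n = 3), 10.4 ± 10.2 in ICM (n = 7), 0.121 ± 0.111 in PrE (n = 3, 10 counts in all) and 5.12 ± 6.62 in Epi (n = 2). The log2 fold change of PrE over ICM was -6.39 (SE 2.18, unadjusted p = 0.00808, adjusted p = 0.395) and that of PrE over TE -6.57 (SE 2.27, adjusted p = 0.113) in edgeR. With the replicate block in limma-voom the adjusted p was 0.0328 and 0.0473. Other alternatives ranged from 8.03e-05 to 0.607 and from 9.69e-05 to 0.468.

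Aqp9, which also passes glycerol and other small solutes, was detected in few cells. In TE the cell of embryo 2 was at 37.7 RPRT, and those of embryos 4 and 5 were at 0.162 and 0.471. In the ICM 7 of 14 cells were above 1, with a median of 2.13 and the highest at 25.2. Without that highest cell, which was under 70% mapped, 6 of 13 were above 1 and the median was 0.793. None of the 13 PrE cells (highest 0.493) and none of the 10 Epi cells (highest 0.133) was above 1. The sign of ICM over TE turned with the TE cell of embryo 2, from a log2 fold change of -2.25 (SE 1.62, adjusted p = 0.365) to 2.36 without it. The Epi cells had 1 count of Aqp9 in all, against 1180 in the ICM cells. Pooled per scaled library size, ICM cells held 689 times the Epi level (95% interval 123 to 27236, exact binomial, counting error only). The interval leaves out the spread between embryos, whose CPM was 0.098 to 15.01 in the ICM and 0 to 0.109 in Epi. Over embryos, the log2 fold change of Epi over ICM was -7.06 (SE 3.25, adjusted p = 0.674 in edgeR). No comparison passed in edgeR.

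The levels of the called genes were ordered as follows. For Cldn4 and Cldn7, mean CPM fell in the order TE, ICM, Epi and PrE. The differences among the last 3 classes did not pass in edgeR. For Cldn7, mean CPM in Epi lay above that in PrE only through embryo 17, which gave 1 Epi cell. In embryo 14, Cldn7 had a CPM of 4.48 in Epi and 12.8 in PrE. Its median RPRT was also lower in Epi (0) than in PrE cells (3.48). For Aqp8, PrE and ICM lay above TE and did not differ beyond their spread from each other (log2 fold change 0.54, SE 0.87, adjusted p = 0.938), and TE over Epi did not pass (Epi over TE -3.88, SE 1.42, adjusted p = 0.139). For the other 5 genes no pair of classes passed the adjusted p in edgeR. A p that misses the threshold does not show equal levels.

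**Figure D3:**
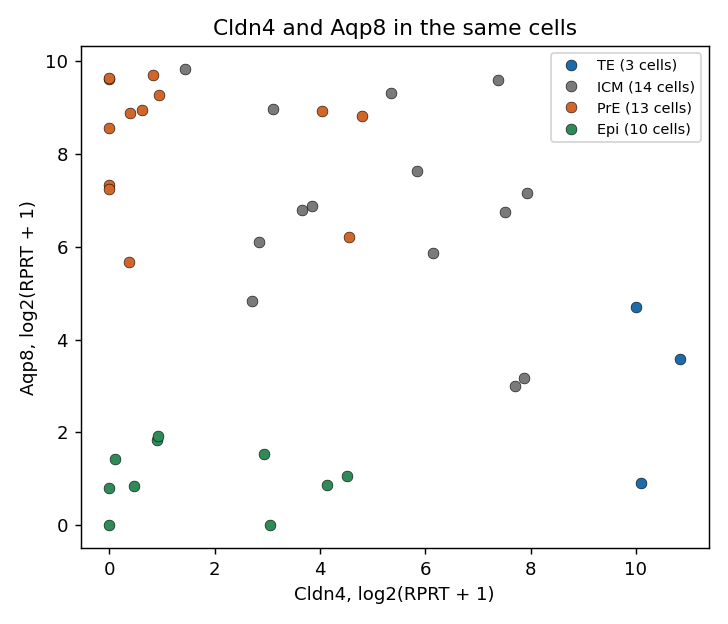
RPRT of Cldn4 (x axis) and Aqp8 (y axis), both as log2(RPRT + 1), in 40 cells coloured by class. TE cells lie at the lower right, PrE cells at the upper left, Epi cells at the lower left, and ICM cells between TE and PrE cells.

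In single cells, the claudins were seen together in the TE and ICM. All 3 claudins were above 1 in 3 of 3 TE cells, 11 of 14 ICM cells, 2 of 13 PrE cells and 4 of 10 Epi cells, and no claudin was above 1 in 2 Epi cells. Of the 8 genes, TE cells had 6 to 7 above 1, ICM cells 5 to 8, PrE cells 4 to 6 and Epi cells 2 to 7. Cldn4 and Cldn7 correlated over the 40 cells (Pearson r = 0.71, Spearman rho = 0.65, log2(RPRT + 1)), and less within the 14 ICM cells (r = 0.45, rho = 0.50). Within the 10 Epi cells r was 0.77 (rho = 0.79), and within the 13 PrE cells it was -0.17 (rho = -0.096). Cldn4 and Aqp8 had r = -0.11 over the 40 cells. These correlations describe cells that share embryos, libraries and class, and carry no test.

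Within the ICM, the claudins moved with TE markers. The 3 cells of embryo 12 had 209, 245 and 235 RPRT of Cldn4 and TE marker sums of 2512, 2805 and 1187, and the cell of embryo 4 had 165 and a sum of 1577. The other 10 ICM cells had TE marker sums of 38.8 to 858 and Cldn4 of 1.71 to 182. Over the 14 cells, r with the TE marker sum was 0.64 for Cldn4, 0.65 for Cldn6, 0.70 for Cldn7 and 0.67 for Atp1b1. Atp1b1 had a like r of 0.68 with the PrE marker sum, though its Spearman rho was 0.30 there and 0.66 with TE markers. Keratins gave the highest single TE marker values in ICM cells, up to 1321 RPRT for Krt18 and 1235 for Krt8, while Cdx2 was above 1 in 4 of 14. By median over ICM cells, Elf3 led with 131 RPRT, before Krt8 with 59.9 and Krt18 with 23.7. Elf3 had a median of 151 in PrE cells, so the TE marker sum was not particular to TE-like cells. The TE marker sum over ICM cells had a median of 259, against 10910 in TE cells and 211 in PrE cells. Its part in the claudin levels was not tested. Aqp8 and Aqp3 differed in the sign of their correlations with PrE and Epi markers over ICM cells, and had r = -0.38 with each other. Aqp8 had r = 0.46 with PrE markers and -0.63 with Epi markers, while Aqp3 had r = -0.72 with PrE markers and 0.64 with Epi markers. The highest Aqp8 cells were 1 of embryo 10 (908), the cell of embryo 4 (772) and the cell of embryo 13 (629), and the highest Aqp3 cells were 1 of embryo 8 (42.3) and the cell of embryo 11 (34.6).

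**Figure D4:**
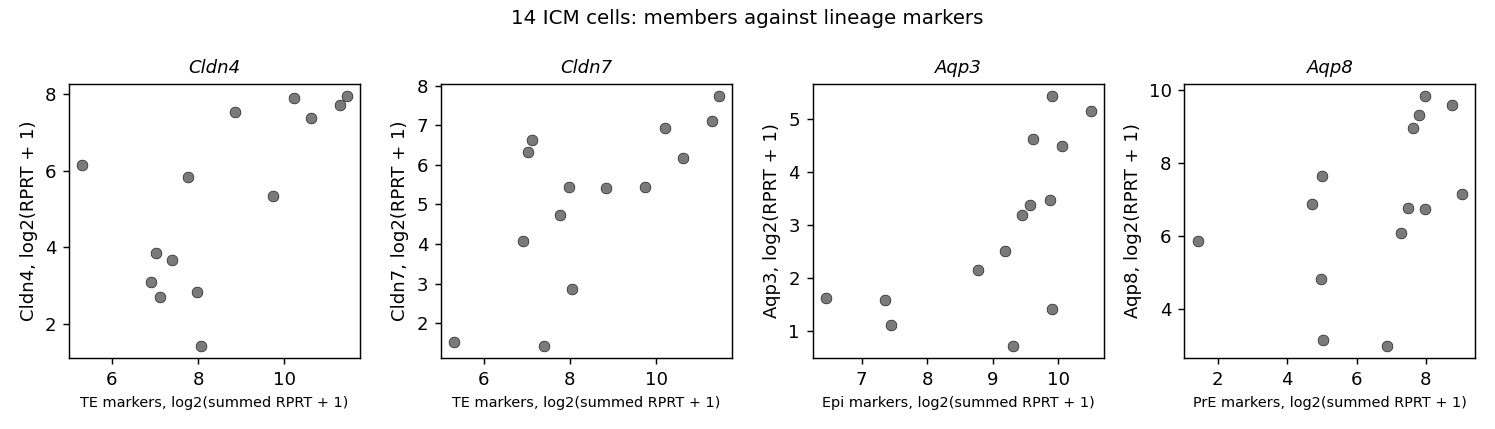
Each point is 1 of 14 ICM cells. Panels show Cldn4 and Cldn7 against the summed RPRT of TE markers, Aqp3 against Epi markers and Aqp8 against PrE markers, all as log2(value + 1). Pearson r was 0.64, 0.70, 0.64 and 0.46.

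The genes whose levels were most like those of each member over the 40 cells were taken among 9898 other genes above an RPRT of 1 in at least 10 cells. For Cldn4 they were Dppa1 (r = 0.86), Gm2a (0.84) and Adh1 (0.83). For Cldn7 they were the keratin Krt8 (0.79), Gm2a (0.78) and Crip2 (0.76). For Aqp8 they were Glipr2 (0.87), the PrE receptor Pdgfra (0.86) and Fgf10 (0.85). For Aqp3 they were Akr1c21 (0.80), Map1lc3b (0.78) and Tfap2c (0.77), and Tfap2c also led for Aqp9 (0.74). Tfap2c, listed here as a TE marker, was at 1.89 to 34.6 RPRT in TE cells and at 1.59 to 111 in ICM cells. With the whole TE marker sum, r over the 40 cells was 0.20 for Aqp3 and 0.37 for Aqp9. Likeness was weaker for Cldn6 (Pdgfa, 0.64), Tjp1 (Ndufv2, 0.59) and Atp1b1 (Vps4a, 0.61).

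The allelic ratio, the share of reads from the paternal genome, was not part of the rule that named the genes. Earlier results of these data were known when they were chosen. The study kept genes with a minimum number of reads over variants. The deposited ratios come without their read counts, so no interval is given. With 1 direction of the cross the parent and the strain cannot be told apart. Cldn4 was read from both genomes in each TE cell (0.459, 0.555 and 0.478), as was Cldn7 (0.362, 0.627 and 0.453). In ICM cells Cldn4 ranged from 0.167 to 1 (13 cells, mean over embryos 0.535 ± 0.202, n = 7) and Cldn7 from 0.0714 to 0.787 (10 cells). Tjp1 and Atp1b1 had means of 0.508 (29 cells) and 0.594 (27 cells) over all classes, with single cells from 0 to 1.

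Aqp3 was read almost wholly from the maternal genome. It had a ratio in 8 cells of 6 embryos, 1 TE, 6 ICM and 1 Epi, of which 5 were at 0 and the highest at 0.222. The mean was 0.0489. Among 7173 autosomal genes with a ratio in at least 8 cells, the median of the means was 0.498, and 0.558% had a mean at or below that of Aqp3. All 8 cells were above an RPRT of 4. Cldn6 leaned the other way, with a mean of 0.744 over 24 cells of 9 embryos. Of 3726 autosomal genes with as many cells, 98.4% had a mean at or below it, and 13 of its 24 cells were at 0.85 or above while 2 were at 0. Aqp8 had a mean of 0.803 ± 0.139 over 7 ICM embryos and 0.444 ± 0.220 over 3 PrE embryos (SD), and this difference was not tested. Of its ICM cells 7 of 14 were at 0.85 or above, and of its PrE cells 0 of 13 were.

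**Figure D5:**
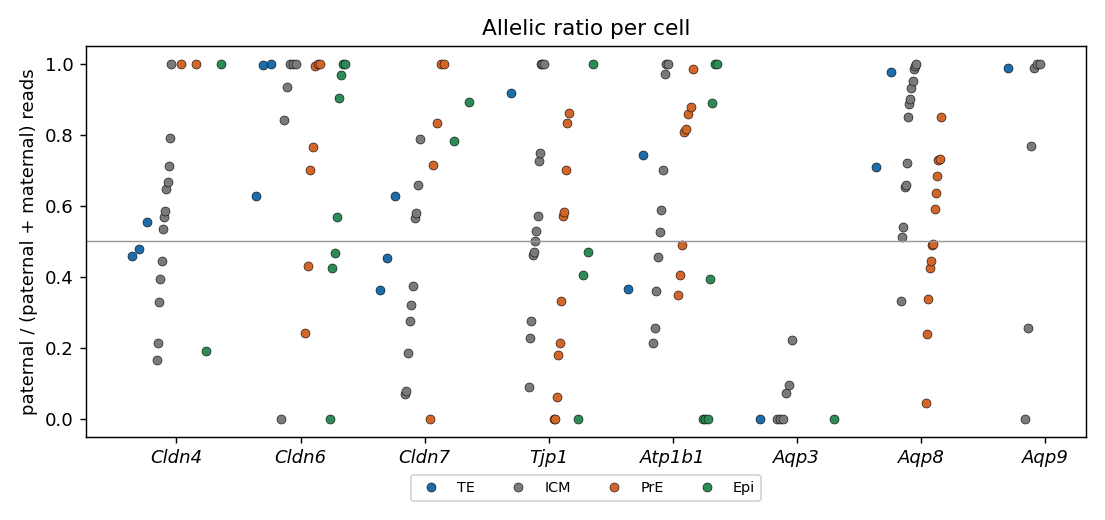
Each point is the share of paternal reads (y axis) of a gene in 1 cell, coloured by class, for cells with a ratio in the deposited values. Aqp3 lies between 0 and 0.222 in 8 cells, and Cldn4 near 0.5 in the 3 TE cells.

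Other genes of the same structures were counted in lists. Of all genes tested, 4.23%, 2.31% and 1.70% were called for ICM, PrE and Epi over TE. Among 10 tested membrane proteins of the junction, 3 were called for ICM over TE cells (1 higher, 2 lower), 3 for PrE over TE (1 higher, 2 lower) and 1 for Epi over TE (higher), with median log2 fold changes of -1.02, -5.04 and -1.89. F11r, which encodes the junctional adhesion molecule JAM-A, fell by 2.63 in ICM and fell by 5.28 in PrE on the log2 scale (SE 0.51 and 0.77, adjusted p = 0.0126 and 0.00238). The epithelial adhesion molecule Epcam had log2 fold changes of -2.75 and -4.799 (SE 0.71 and 1.05, adjusted p = 0.0387 and 0.0219). Jam2, a related adhesion molecule, rose in each, by 6.32 in ICM, 5.06 in PrE and 6.43 in Epi (SE 1.29, 1.27 and 1.37, adjusted p = 0.0151, 0.0386 and 0.0239). Its CPM was 1.16 ± 1.59 in TE (n = 3) and 87.9 ± 35.1 in ICM (n = 7). Jam3 had no count in TE and a CPM of 101 ± 71.6 in PrE (n = 3, range 55.8 to 184). Pooled over embryos, PrE lay at least 641-fold higher with a floor of 3 counts over the class. This did not pass in edgeR (adjusted p = 0.0598).

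Of the junction plaque, 11 genes were tested and 1 was called, lower for ICM over TE, against 4.23% of all genes. The plaque protein gene Cgn (cingulin) had a CPM of 90.1 ± 25.7 in TE (n = 3) and 1.97 ± 2.85 in PrE (n = 3), with adjusted p = 0.0725 in edgeR. Of 15 tested genes of apical polarity, 2 were lower in ICM and 1 in PrE than in TE, against 4.23% and 2.31% of all genes. The Crumbs gene Crb3 had log2 fold changes of -4.82 (SE 1.07, adjusted p = 0.0225) and -9.95 (SE 1.90, adjusted p = 0.0143), and Llgl2 of -3.57 in ICM (SE 1.004, adjusted p = 0.0486). Median log2 fold changes over these lists for ICM over TE were -0.27 for the plaque and 0.13 for polarity.

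Of the other claudins 5 of 28 passed the filter and 0 were called in any comparison. Cldn3 had a CPM of 111 ± 76.4 in TE (n = 3) and 3.81 ± 7.09 in ICM (n = 7) and no count in PrE or Epi. Pooled over embryos, TE lay at least 3915-fold above PrE with a floor of 3 counts over the class. The TE embryos ranged from 24.3 to 167 CPM, and the adjusted p was 0.0629 in edgeR. Of the sodium pump list 8 of 13 genes were tested, with 1 lower in ICM and 2 lower in PrE than in TE. The shares called over all genes were 4.23% and 2.31%. The pump regulators of the FXYD family Fxyd4 and Fxyd6 had no count in PrE. Pooled over embryos, they were at least 1777-fold and 5038-fold lower than in TE (adjusted p = 0.0219 and 0.0490 in edgeR). Over the 3 TE embryos, Fxyd4 ranged from 2.09 to 95.3 CPM and Fxyd6 from 76.3 to 283. Of the other aquaporins 2 of 9 were tested, Aqp7 and Aqp11, and of ion and proton transporters 8 of 14, and 0 of either list were called. Median log2 fold changes for ICM over TE were 0.60, -0.38, 3.93 and -0.54 for the other claudins, the pump, the other aquaporins and the transporters. In the 3 comparisons without TE, 0 genes of any list were called.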

How the data were processed

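Single cells were picked by hand, their polyadenylated RNA was amplified with a protocol that does not mark strand, and 50 bp single-end reads were sequenced. Per the labels, the authors aligned reads with TopHat2 2.1.0 to mm10, counted them per gene with HTSeq 0.6.1, and deposited raw counts. RPRT, as deposited, is a per-gene signal, which the authors obtained from reads by scaling to retrotranscribed length and depth. The deposited allelic ratio is the fraction of parental reads from the paternal genome, computed by the authors after splitting reads by strain variants.

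The labels gave the stage of each cell, and its class and embryo came from the cell annotation published with the study. Counts were added per embryo and class and tested in edgeR 4.0.16 (R 4.3.3; TMM, filterByExpr by class, quasi-likelihood F test, all 15 sums in 1 fit, Benjamini-Hochberg over 12599 genes), and again in DESeq2 1.42.0 and limma 3.58.1, with Python 3.11.15 for descriptions. The fits were tested on simulated data. For edgeR, SE was derived as the absolute log2 fold change divided by the square root of the F statistic. RPRT was used as log2(RPRT + 1). Alternatives changed the test, scaling, filter, samples, cells, unit or pseudocount (0.1), or left out each sum. Embryos 4 and 14 gave cells to 2 classes each, so pairing comes from the same animal. Deviations from the class means correlated at -0.04 in embryo 4 and 0.09 in embryo 14, and the correlation within embryos was 0.19 in limma-voom. From each pathway list, up to 4 genes with the lowest unadjusted p could be named. The 3 genes most like each member were named by Pearson r among genes above RPRT 1 in at least 10 cells. Members and lists were chosen with earlier results of these data known. Promoters were from RefSeq. Intervals and floors pool the embryos of a class and cover counting error only, not the spread between embryos. Protein sequences were not used here. Values of some list genes are not reported here, though the genes stay in the counts.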

Additional observations from a re-analysis of the deposited data

Results flagged for a closer look

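Tjp1 in embryo 11 stood apart from the other ICM embryos. Its CPM was 265, and the next highest of the 7 embryos was at 70.6, a gap of 0.786 of the whole range against a critical value of 0.568 in Dixon's test. This test flags some groups by chance, and 16 such extremes were examined over the 8 genes. Embryo 11 was represented by 1 cell, in which Tjp1 was at 294 RPRT, Atp1b1 at 0.714 and Cldn6 at 0. Among the 14 ICM cells, this cell had the lowest TE marker sum (38.8), the lowest PrE marker sum (1.68) and the highest Epi marker sum (1443), and their part in the Tjp1 level was not tested. Without embryo 11, the log2 fold change of Tjp1 for ICM over TE was 1.49 (adjusted p = 0.369 in edgeR).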

How the results depend on the processing

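The tests rested on 3 TE, 7 ICM, 3 PrE and 2 Epi embryos, TE levels on 1 cell per embryo, and counts of called genes depended on the method. The cause of these changes was not tested. In the order ICM, PrE and Epi over TE, then PrE over ICM, Epi over ICM and Epi over PrE, DESeq2 called 2749, 2535, 2380, 351, 498 and 415 genes, where edgeR called 533, 291, 214, 0, 1 and 0. For the last 5 comparisons, limma-voom with embryo as a replicate block called 924, 958, 242, 239 and 341 genes, and without the block 919, 985, 251, 240 and 239. Beside the member calls given with the block in the report, it changed no other call. With the size factors of DESeq2, edgeR called 1726 genes for ICM over TE (261 higher, 1465 lower, against 269 and 264 with TMM and 293 and 77 without it) and 19 for Epi over TE. Without the filter the last 5 comparisons gave 510, 383, 26, 37 and 13. Fitting only the 2 classes compared gave 179, 549 and 633 against TE, 3 for Epi over ICM and 67 for Epi over PrE, and the earlier study alone gave 8 for ICM over TE. Equal weight of cells gave 823, 690, 851, 18, 115 and 76. RPRT gave 524 for Epi over TE and 21, 93 and 58 for the last 3 comparisons. With a pseudocount of 0.1 these were 570, 45, 81 and 38, and without a filter 473, 31, 98 and 69, with 333 for ICM over TE. Leaving out 1 sum gave 159 to 971, 55 to 540, 5 to 394, 0 to 1, 0 to 7 and 0 to 0.

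Of the members, directions turned only where edgeR made no call. Aqp3 for ICM over TE (-0.18) became 0.21 in limma-voom without the block, 0.15 without TMM, 0.40 with equal weight of cells, 0.50 on RPRT with and without a filter and 0.65 with the smaller pseudocount. Tjp1 for PrE over ICM (-0.28) became 0.21 with the block, 0.15 without it, 0.047 on RPRT with and without a filter and 0.12 with the smaller pseudocount. Atp1b1 for Epi over ICM became 0.15 with the block and 0.19 without it, and Cldn7 for Epi over PrE became -0.72 and -0.62. Leaving out 1 sum turned Aqp9 (-2.83 to 2.36) and Aqp3 (-0.74 to 1.81) for ICM over TE, Aqp3 (-4.74 to 0.78) and Tjp1 (-0.27 to 4.24) for Epi over TE, Cldn6 (-1.52 to 0.83), Tjp1 (-0.68 to 0.45) and Atp1b1 (-0.011 to 0.47) for PrE over ICM, and Cldn7 (-1.76 to 1.24) for Epi over PrE. With an RPRT limit of 4 in place of 1, the cells counted fell from 10 to 6 for Cldn7 in PrE, from 13 to 8 for Aqp3 in ICM, from 1 to 0 for Aqp3 in PrE and from 5 to 0 for Aqp8 in Epi.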
